A study of Mus musculus with 6 samples.

Results

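The genes described here encode proteins of the primary (azurophil) granules of neutrophils, with 1 membrane protein of the same maturation stage. They were chosen by name for these products, as *Mpo*, *Elane*, *Prtn3*, *Prss57*, *Ctsg*, *Bpi* and *Ms4a3*, 7 genes in all. Of these, 6 had a row among the 29097 genes of the deposited table, and the expression of *Bpi* was not analysed here. Neutrophils gated as CD45+CD11b+Ly6G+ were sorted from the peripheral blood (PB) of male C57BL/6 wild type mice, aged 8 weeks by the methods of the study. Ligation-induced periodontitis (LIP) mice carried a silk ligature for 14 d, and control (Ctrl) mice stayed unligated for the same time. Each group had 3 libraries, and each library held the pooled neutrophils of 5 mice, so that values of single animals were averaged before sequencing. Smart-seq2 was used, which copies whole mRNA into cDNA and amplifies it without molecular identifiers, and a read is therefore not an independent molecule. Between 52186555 and 57262379 reads were counted per library.

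Primary granules are the first granules that a developing neutrophil makes. Their peroxidase, serine proteases and antimicrobial proteins are transcribed at the promyelocyte stage in bone marrow. Transcription of these genes is then shut down, and the secondary (specific) and tertiary (gelatinase) granule proteins are made at the following stages. The proteins stay stored in the granules of circulating neutrophils, where little of their mRNA is left. C/EBP family factors, PU.1, Myb, Runx1 and Gfi1 are known regulators of this program.

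The promoters were read first, because the genes were grouped by their protein products and the rule made no use of sequence. RefSeq promoter windows of GRCm38.p6, from 250 bases before to 50 after the start, were at hand for 6 of the 7 genes, *Prss57* being the exception. Both strands were searched for 5 motifs. The letters GAGGAA, a core that the factor PU.1 can bind, were found in 6 of 6 windows, against 28.3% of 32851 windows of all genes. The Myb letters AACNG were found in 5 of 6, against 80.3%. The C/EBP letters TTNNGNAA were found in 1 of 6, that of *Ms4a3*, against 40.7%. The Runx letters TGTGGT and the TATA letters TATAAA were each found in 2 of 6, those of *Bpi* and *Ctsg*, against 16.8% and 13.6%. No hit overlapped a hit of another motif. A match of letters does not show a bound site. The following 4 stretches, 5′ to 3′ on the strand of the gene and free of annotated exons, show 1 match each in capitals for the peroxidase and 3 of the proteases. The *Mpo* stretch holds another match, left in lower case, that began 247 bases before the start. They came from chr11:87793534-87793580 (+), chr10:79886195-79886246 (+), chr10:79879540-79879609 (+) and chr14:56102753-56102822 (-), and the capitals began 224, 85, 95 and 216 bases before the RefSeq start.
*Mpo*: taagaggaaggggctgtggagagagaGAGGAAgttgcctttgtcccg
*Elane*: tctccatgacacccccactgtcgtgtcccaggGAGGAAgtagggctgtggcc
*Prtn3*: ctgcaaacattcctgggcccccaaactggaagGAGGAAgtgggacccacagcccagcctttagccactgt
*Ctsg*: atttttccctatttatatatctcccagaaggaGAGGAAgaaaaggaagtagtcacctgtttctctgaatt

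Transcripts of the primary granule genes were scarce in both groups. The 6 listed genes together took 924, 622 and 407 reads in the Ctrl libraries and 210, 328 and 274 in the LIP libraries, or per 1000000 counted reads, 17.4, 11.4 and 7.78 in Ctrl and 3.72, 5.73 and 5.25 in LIP. Each LIP library lay below each Ctrl library in this sum. In raw reads of single genes this held for 36.7% of the 16402 genes that edgeR's filterByExpr keeps. The sum was not tested. *Mpo* gave 185 of the 407 reads of Ctrl 3 and 0, 0 and 40 of those in LIP, and without it the groups would overlap. In Ctrl 1, 439 of the 924 reads came from *Prss57* alone. Reads of *Prtn3* and *Prss57* were present in 6 of 6 libraries, those of *Elane* in 5, those of *Mpo* in 4, and those of *Ctsg* and *Ms4a3* in 1 each.

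*Mpo* (ENSMUSG00000009350, GRCm38 chr11:87793581-87804413, + strand) encodes myeloperoxidase, which makes hypochlorous acid from hydrogen peroxide. It had 129, 182 and 185 reads in Ctrl and 0, 0 and 40 in LIP. The 3 Ctrl libraries lay close together, the LIP libraries all lay below them, and LIP 3 alone held the reads of its group. Its level, as FPKM (reads scaled to gene length and library total), was 0.641, 0.886 and 0.934 in Ctrl and 0, 0 and 0.201 in LIP. In LIP 1 and LIP 2, where no read was counted, a count of 0 allows up to 3 reads, or 0.0140 and 0.0138 FPKM, for counting error only. A short antisense gene, *Gm11505*, lies across *Mpo* and had 2 reads in Ctrl 1 and 0 in the other libraries.

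*Elane* (ENSMUSG00000020125, GRCm38 chr10:79886247-79888215, + strand) encodes neutrophil elastase. It had 162, 95 and 72 reads in Ctrl and 66, 44 and 0 in LIP. The highest LIP library was 6 reads below the lowest Ctrl library, so the groups were apart by a narrow gap in reads. Its level was 2.86, 1.63 and 1.27 FPKM in Ctrl and 1.10, 0.719 and 0 in LIP, where the 0 of LIP 3 allows up to 0.0538 FPKM. On the CPM scale, reads scaled to library totals after TMM normalization, *Elane* had 2.69, 1.59 and 1.23 in Ctrl against 1.31, 0.863 and 0 in LIP. On this scale LIP 1 lay above Ctrl 3, and the groups overlapped.

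*Prtn3* (ENSMUSG00000057729, GRCm38 chr10:79874476-79883174, + strand) encodes proteinase 3, a serine protease close to elastase. It had 194, 113 and 84 reads in Ctrl and 49, 141 and 128 in LIP. The highest library was in Ctrl, the lowest in LIP, and the 4 others were mixed. *Prss57* (ENSMUSG00000020323, GRCm38 chr10:79781474-79790961, - strand) encodes neutrophil serine protease 4. It had 439, 154 and 66 reads in Ctrl and 95, 139 and 106 in LIP. All 3 LIP libraries lay within the range of the Ctrl libraries, whose upper end was set by Ctrl 1.

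*Ctsg* (ENSMUSG00000040314, GRCm38 chr14:56099881-56102574, - strand) encodes cathepsin G, a serine protease with chymotrypsin-like specificity. It had 0 reads in 5 libraries and 4 reads, or 0.0628 FPKM, in LIP 2, where 3 reads are worth 0.0471 FPKM. *Ms4a3* (ENSMUSG00000024681, GRCm38 chr19:11629496-11640834, - strand) encodes a membrane protein of granulocyte and monocyte progenitors. It had 78 reads in Ctrl 2, or 0.700 FPKM, and 0 reads in the 5 other libraries, where 3 reads are worth between 0.0256 and 0.0281 FPKM. Reads of each gene came from 1 library. In that case the exact two-sided permutation test of CPM can only give p = 1.0, as it did for both, and it decides nothing. In edgeR without a filter neither passed (adjusted p = 0.330 for *Ctsg* and 0.243 for *Ms4a3*), and no difference between the groups can be read from 1 library. Of the 6148 genes of the table with reads in exactly 1 library, the median gene had 5 reads, and 19 genes (0.309%) had 78 or more.

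**Figure D1:**
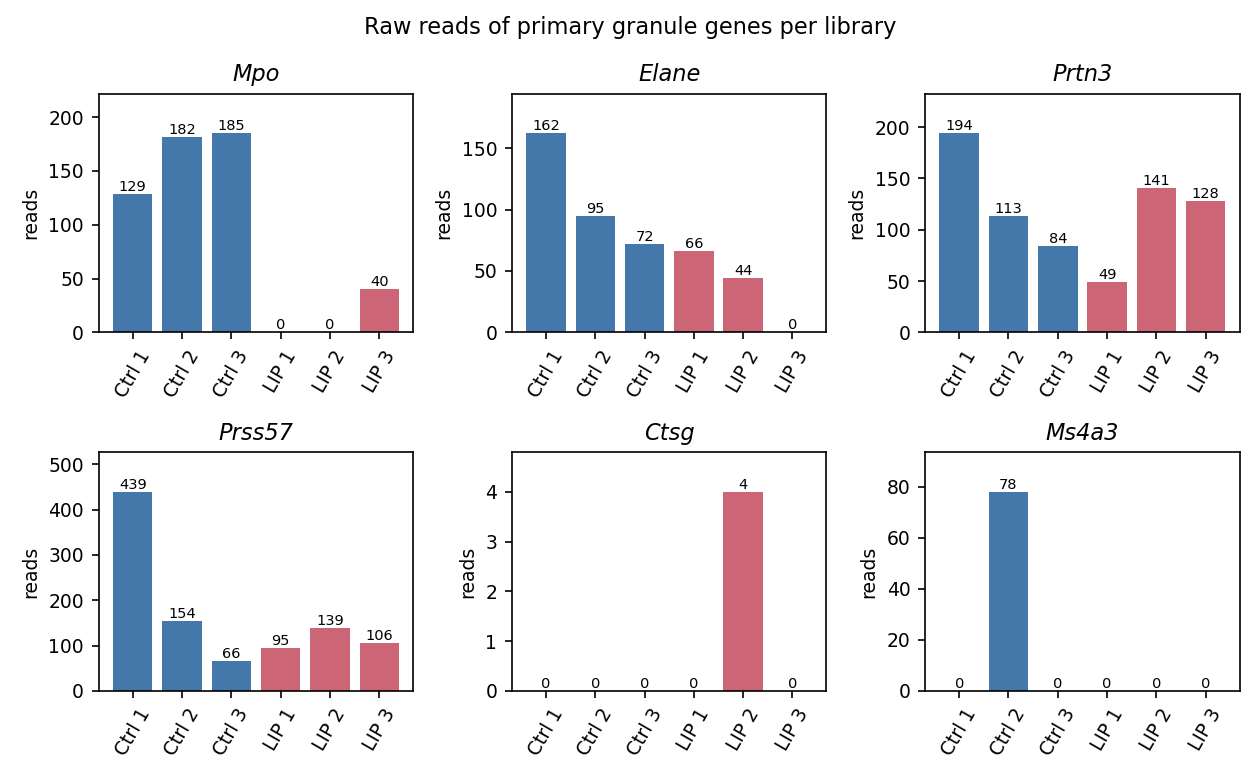
Raw reads (vertical axis, linear from 0, scaled per panel) of the 6 listed primary granule genes in each of the 3 Ctrl and 3 LIP libraries (1 bar per library, no averaging). *Mpo* stood at 129 to 185 reads in Ctrl and 0 to 40 in LIP, while the bars of *Prtn3* and *Prss57* were mixed between the groups.

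Whether ligation changed these transcripts was asked with edgeR's quasi-likelihood test of LIP against Ctrl. No primary granule gene passed an adjusted p of 0.05 in the main edgeR fits, with TMM and all 6 libraries. Among the 10440 genes whose mean FPKM reached 1, of which 53.6% passed in either direction (26.5% higher and 27.2% lower in LIP), *Elane* and *Prtn3* were tested and 0 of these 2 passed. Their number was also 0 at an unadjusted p under 0.05 and with DESeq2, and 1, *Elane*, in limma on log2(FPKM + 1), which called 40.7% of these genes lower. *Mpo* and *Prss57* fell below that mean level, and they were read from a fit on the 16402 genes that edgeR's filterByExpr keeps, of which 33.2% passed. There 0 of the 4 genes tested passed in edgeR, also at an unadjusted p under 0.05. DESeq2 called 0 at an adjusted p and 1, *Mpo*, at an unadjusted p under 0.05, where 22.4% of these genes were lower. In limma on log2(FPKM + 1) 2 were called, *Mpo* and *Elane*, both lower in LIP, as were 31.0% of these genes. *Ctsg* and *Ms4a3* passed neither filter.

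*Mpo* averaged 2.78 ± 0.559 CPM over the Ctrl libraries and 0.282 ± 0.489 CPM over the LIP libraries (SD, n = 3 each). The fitted log2 fold change was -3.25 with a standard error of 1.62 (adjusted p = 0.168, edgeR). In the exact permutation test its two-sided p was 0.1, the smallest that 3 libraries against 3 allow. It was the only one of the 6 genes whose groups stayed apart in reads, FPKM and CPM, against 28.0% of the 16402 genes with all LIP values below all Ctrl values in CPM and 36.7% in raw reads. The call turned on 1 library and on the method. Without LIP 3, *Mpo* had no read in the LIP group and passed in edgeR (adjusted p = 0.00179), as did 15.3% of the genes with LIP lower. It also passed in limma on log2(FPKM + 1), with a difference of -0.77 on that scale (adjusted p = 0.00158), and on log2(FPKM + 0.1), with -2.66 (adjusted p = 0.00400), where 30.2% of the genes were called lower. Over all alternatives its adjusted p ran from 0.00158 to 0.300.

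*Elane* averaged 1.84 ± 0.760 CPM over the Ctrl libraries and 0.725 ± 0.667 CPM over the LIP libraries (SD, n = 3 each). The fit put its log2 fold change at -1.33, with 0.961 as the standard error (adjusted p = 0.262, edgeR). Its exact two-sided permutation p was 0.2. In raw reads its groups were apart with LIP lower, as in 42.2% of the 10440 genes. In limma on log2(FPKM + 1) the difference was -0.89 (adjusted p = 0.0278), and over all alternatives the adjusted p ran from 0.0154 to 0.509. *Prtn3* averaged 2.18 ± 0.927 CPM over the Ctrl libraries and 2.15 ± 1.02 CPM over the LIP libraries (SD, n = 3 each). The fit put its log2 fold change at -0.02, with 0.516 as the standard error (adjusted p = 0.974 in edgeR, exact permutation p = 1.0). *Prss57* averaged 3.66 ± 3.22 CPM over the Ctrl libraries and 2.29 ± 0.419 CPM over the LIP libraries (SD, n = 3 each). The fit put its log2 fold change at -0.63, with 0.665 as the standard error (adjusted p = 0.522 in edgeR, exact permutation p = 0.8). Without Ctrl 1 the log2 fold change of *Prss57* was 0.34. The difference was smaller than the spread between libraries for *Prtn3* and *Prss57*, and 2 standard errors span more than 1 log2 unit in either gene.

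The mean number of reads per library was 89.3 for *Mpo*, 73.2 for *Elane*, 118 for *Prtn3* and 166.5 for *Prss57*. The biological coefficient of variation (BCV), the spread between libraries of a group that edgeR estimates for each gene beyond counting error, was 1.32 for *Mpo*, 1.06 for *Elane*, 0.573 for *Prtn3* and 0.604 for *Prss57*. In the 2965 tested genes with a mean of 50 to 200 reads, the median BCV was 0.648, with quartiles of 0.535 and 0.842. *Prtn3* and *Prss57* were thus within the middle range for their depth, while *Mpo* and *Elane*, both with a LIP library at 0, were above it. The median BCV of the 10440 more abundant genes was 0.221. A library at 0 was found in 19.8% of all 2974 genes of the same depth. Of the 2965 tested at that depth, 11.5% passed an adjusted p of 0.05 in edgeR. Those that passed with LIP lower made up 7.72% of the 2965, whose median log2 fold change was -0.35.

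**Figure D2:**
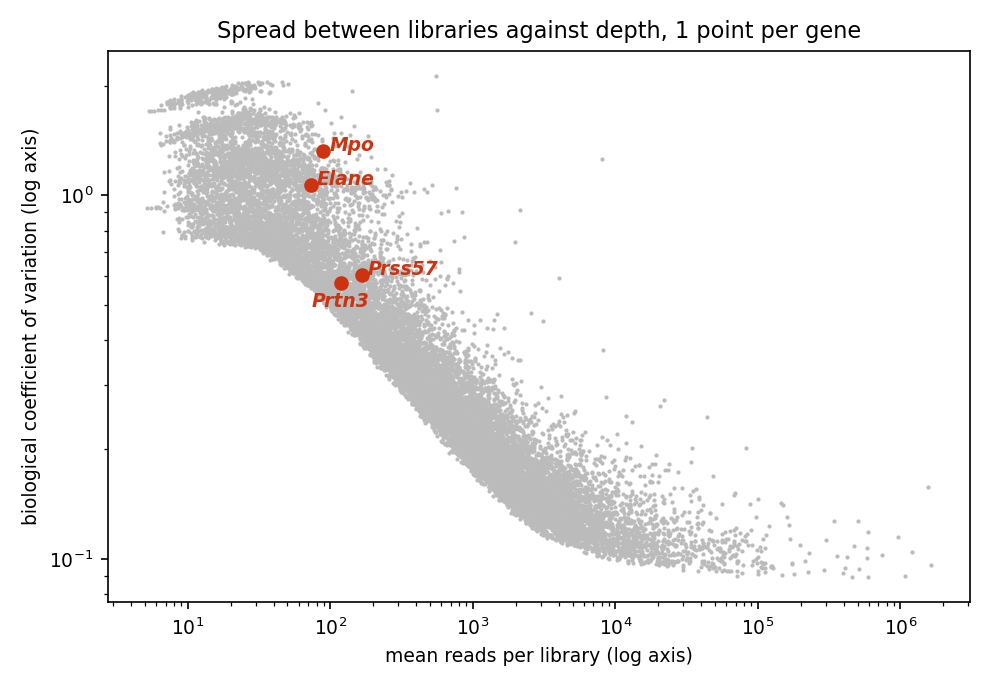
BCV estimated by edgeR (vertical, log axis) against mean reads per library (horizontal, log axis) for the 16402 genes kept by filterByExpr, 1 grey point per gene, with 4 primary granule genes in red. *Mpo* (1.32) and *Elane* (1.06) lie above the quartile range of 0.535 to 0.842 for genes of 50 to 200 reads, and *Prtn3* (0.573) and *Prss57* (0.604) lie inside it.

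Ranked by mean FPKM over the 6 libraries, the order was *Elane* (1.26), *Prtn3* (1.15), *Prss57* (0.999), *Mpo* (0.444), *Ms4a3* (0.117) and *Ctsg* (0.0105). The median gene of the table had a mean of 0.26 FPKM, and 9719 genes lay above *Elane*. In Ctrl the levels were 1.92 ± 0.831 FPKM for *Elane*, 1.33 ± 1.20 for *Prss57*, 1.28 ± 0.573 for *Prtn3* and 0.821 ± 0.157 for *Mpo* (SD, n = 3 each). These neighbors lay within their spread of each other. In LIP the levels were 1.02 ± 0.490 FPKM for *Prtn3*, 0.665 ± 0.127 for *Prss57*, 0.607 ± 0.560 for *Elane* and 0.0670 ± 0.116 for *Mpo* (SD, n = 3 each). *Mpo* was last of the 4 in both groups, and no *Mpo* value in LIP reached the lowest value of *Prss57* or *Prtn3*. The gene length behind each FPKM affects this order. It was 1915 bp for *Prtn3* and 3789 bp for *Mpo*, which is 1.87 and 1.38 times the longest coding transcript in GENCODE, and 1.09 times for *Elane* and *Prss57*. A longer gene length lowers the FPKM that a given number of reads is worth.

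*Elane* and *Prtn3* are neighbors on chromosome 10, 3073 bp apart, with *Prss57* in the same region. In FPKM the ratio of *Elane* to *Prtn3* was 1.48, 1.50 and 1.53 in the 3 Ctrl libraries and 2.44, 0.543 and 0 in the LIP libraries. The ratio was nearly the same in Ctrl while the reads of both genes ranged more than 2-fold, and it differed between all LIP libraries. This was not tested. The ratios rest on few reads, for *Elane* and *Prtn3* 66 and 49 in LIP 1 and 0 and 128 in LIP 3. The ratio of *Prss57* to *Prtn3* was 1.39, 0.840 and 0.483 in Ctrl and 1.20, 0.602 and 0.513 in LIP, with no separation of the groups. A test of ratios to *Mpo*, which was to use genes with at least 10 reads in every library, was not run, since *Mpo* had libraries at 0.

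Genes beside the primary granule genes did not share 1 pattern. *Ptbp1*, a splicing regulator on the far side of *Prtn3* from *Elane*, fell by 0.89 on the log2 scale (adjusted p = 0.00925, edgeR), and *Rnf126*, a ubiquitin ligase gene near *Prss57*, fell by 0.94 (adjusted p = 0.0128, edgeR). *Palm*, 2611 bp from *Prss57* on its other side, rose by 1.57 (adjusted p = 3.84e-06, edgeR). Beside *Ctsg*, the basophil protease gene *Mcpt8* had 211, 97 and 38 reads in Ctrl and 148, 121 and 114 in LIP, and its log2 fold change of 0.42 did not pass (adjusted p = 0.546, edgeR). *Gzmg*, on the other side of *Ctsg*, had 16 reads in LIP 1 and 0 elsewhere. Beside *Mpo*, the peroxidase gene *Lpo* had 11 reads in Ctrl 2, 4 in LIP 2 and LIP 3 each and 0 in the others, and *Tspoap1* had 62, 38 and 166 in Ctrl and 0, 66 and 30 in LIP. Beside *Ms4a3*, *Ms4a2*, a subunit of the high-affinity IgE receptor, had 40, 37 and 13 reads in Ctrl and 25, 108 and 132 in LIP. *Oosp1* had 18 reads in Ctrl 2, the library that held the reads of *Ms4a3*, and 0 elsewhere. *Gm19810*, 497 bp from *Elane*, had at most 16 reads in a library. *Prtn3* shares 159 bp with *Plppr3* and *Prss57* shares 1157 bp with *Fstl3*, both on the opposite strand. *Fstl3* had 39, 105 and 66 reads in Ctrl and 111, 158 and 45 in LIP. The use of strand in counting was not stated, and reads in these overlaps are of uncertain origin.

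By the correlation of log2(CPM + 1) over the 6 libraries, the genes most like *Prtn3* were *Tnip1* (r = 0.967) and *Pigm* (r = 0.961), among 10432 genes, of which 23 had an r over 0.9. Those most like *Prss57* were *Zfyve16* (r = 0.955) and *Pvr* (r = 0.950), with 7 of 10433 genes over 0.9. These are descriptions over 6 points that share library depth and normalization, and each is the top of many genes.

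Genes that act on primary granule proteins were abundant beside the granule genes themselves. Of 14 genes for processing, sorting and packaging, 7 were higher and 2 lower in LIP, where 53.6% of all genes were called. Their median log2 fold change was 0.37, against -0.09 for all genes tested. With library totals the counts were 4 higher and 3 lower, where 1919 of all 10440 genes were higher and 4146 lower. They were 0 higher and 14 lower after scaling to the 21 mature neutrophil genes, where 90.3% of all genes were lower. That neutrophil scaling takes the summed reads of the 21 genes as library size, so the most abundant of them weigh most. Whether it follows the number of neutrophils was not tested. It moves the median of all genes to -2.02, and library totals move it to -0.42. The changes given here and below are to be read against those medians. *Srgn* encodes serglycin, the proteoglycan that holds the proteases in the granule. It had 139190, 165614 and 142813 reads in Ctrl and 308603, 334280 and 279659 in LIP, and its log2 fold change was 1.31, with 0.0809 as the standard error (adjusted p = 6.98e-07, edgeR). *Cd63*, a membrane protein of primary granules, rose by 1.18 (adjusted p = 3.65e-05, edgeR), and *Lamp1*, a lysosomal membrane protein, by 0.49 (adjusted p = 0.00236, edgeR). *Pdia3*, a protein disulfide isomerase of the endoplasmic reticulum, fell by 0.27 (adjusted p = 0.0475, edgeR). The other gene that fell was *Calr*, the chaperone calreticulin, chosen after its values were seen, which fell by 0.44 (adjusted p = 0.00964, edgeR). *Ctsc* encodes cathepsin C, the peptidase that activates elastase, proteinase 3 and cathepsin G. It had 8269, 7572 and 8991 reads in Ctrl and 5981, 8328 and 6894 in LIP, and its groups overlapped, and the log2 fold change of 0.04 did not pass (adjusted p = 0.840, edgeR).

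The other contents of primary granules behaved unlike the scarce promyelocyte transcripts in level. Of 8 genes for lysozyme and acid hydrolases, 5 were higher and 0 lower (median 0.61), against 26.5% of all genes higher and 27.2% lower. Under library totals 4 were higher and 2 lower, where 1919 of all 10440 genes were higher and 4146 lower. Under neutrophil scaling 0 were higher and 7 lower, where 90.3% of all genes were lower. *Lyz2*, lysozyme, which is also a monocyte gene, stood at 2907, 3772 and 2892 FPKM in Ctrl and 5360, 6069 and 5398 in LIP and rose by 1.12 (adjusted p = 1.36e-05, edgeR). *Man2b1*, a lysosomal mannosidase, rose by 1.02 and *Hexa*, a subunit of hexosaminidase, by 0.72 (adjusted p = 8.90e-05 and 0.000233, edgeR). Of 11 tested genes for the release of primary granules, 10 were higher and 1 lower (median 1.35), against 26.5% and 27.2% of all genes. With neutrophil scaling 0 were higher and 6 lower, where 90.3% of all genes were lower. The GTPase gene *Rac2* rose by 1.04 and the actin regulator *Coro1a* by 0.57 (adjusted p = 2.82e-06 and 0.000452, edgeR).

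Among 8 inhibitors of the neutrophil serine proteases, 3 were higher and 3 lower, where 53.6% of all genes were called (median 0.23, or -0.09 with library totals). Under neutrophil scaling 8 of 8 were lower, where 90.3% of all genes were, and 1 of the 8, *Slpi*, is itself among the 21 genes of that scale. *Slpi*, the secretory leukocyte protease inhibitor, had 41269, 51693 and 45889 reads in Ctrl and 122912, 131626 and 119887 in LIP and rose by 1.70 (standard error 0.0939, adjusted p = 3.49e-07, edgeR). *Serpinb1a*, a cytoplasmic inhibitor of elastase, proteinase 3 and cathepsin G, went the other way. It had 8080, 10246 and 9126 reads in Ctrl and 3596, 2928 and 2940 in LIP and fell by 1.27 (standard error 0.137, adjusted p = 2.74e-05, edgeR). *Serpina3g* fell by 1.01 (adjusted p = 0.000877, edgeR).

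Of the 10 transcription factors listed for the promyelocyte program, 8 were tested. Of these, 2 were higher and 3 lower (median -0.10), where 53.6% of all genes were called. All 8 were lower under neutrophil scaling, as were 90.3% of all genes. *Spi1*, which encodes PU.1, stood at 231.7, 264 and 244 FPKM in Ctrl and 552, 599 and 575 in LIP and rose by 1.53 (adjusted p = 3.99e-07, edgeR). *Cebpa*, which starts the granulocyte program, rose by 1.19 (standard error 0.255, adjusted p = 0.00282, edgeR). *Cebpe*, which drives secondary granule genes, had 756, 992 and 892 reads in Ctrl and 920, 1078 and 391 in LIP, and its log2 fold change of 0.10 did not pass (adjusted p = 0.803, edgeR). *Myc* fell by 2.48 and *Irf8*, a monocyte and lymphocyte factor, by 1.15 (adjusted p = 3.27e-07 and 1.07e-05, edgeR). *Gfi1* and *Myb*, like *Mpo* and *Prss57*, were below a mean of 1 FPKM. *Gfi1* had 339, 110 and 161 reads in Ctrl and 44, 143 and 64 in LIP, and *Myb* had 679, 292 and 577 in Ctrl and 387, 40 and 138 in LIP. The groups overlapped in both.

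Of 12 other genes of early neutrophil maturation, 7 reached a mean of 1 FPKM and were tested, and 1 was higher and 3 lower (median -0.66), a share near the 53.6% of all genes called. With neutrophil scaling all 7 were lower, as were 90.3% of all genes. *Fcnb*, ficolin B, a secreted lectin of the same stage, had 153, 342 and 235 reads in Ctrl and 164, 83 and 136 in LIP, and its log2 fold change of -0.66 did not pass (adjusted p = 0.229, edgeR). Among the more abundant genes of this list, *Npm1*, a nucleolar protein that lymphocytes also express, fell by 1.62 (adjusted p = 2.30e-05, edgeR). *Clec12a*, an inhibitory lectin receptor of myeloid cells, rose by 0.93 (adjusted p = 0.000714, edgeR). *Rgcc*, a cell cycle regulator, had a log2 fold change of 0.15 that did not pass (adjusted p = 0.323, edgeR). Among 16 proliferation genes, 5 were tested and 3 of these were lower, against 27.2% of all genes. The 3 were *Mcm2*, *Mcm5* and *Pcna*, lower by 1.31, 1.86 and 0.58 (adjusted p = 0.00459, 0.00238 and 0.00497, edgeR). With neutrophil scaling 5 of 5 were lower, as were 90.3% of all genes. With filterByExpr all 16 were tested, and 4 were lower and 0 higher, against 16.4% of its genes lower. Among 10 stem and progenitor markers, 2 were tested, 1 higher and 1 lower, where 53.6% of all genes were called.

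The secondary and tertiary granule genes, made after the primary ones, were far more abundant. All 17 tested were higher in LIP (median 1.40), against 26.5% of all genes. Under library totals 15 were higher, where 1919 of all 10440 genes were. Under neutrophil scaling 1 was higher and 9 were lower, where 90.3% of all genes were lower. *Lcn2*, lipocalin 2, rose by 2.06, *Ltf*, lactoferrin, by 0.91, *Ngp*, neutrophilic granule protein, by 0.81 and *Camp*, the cathelicidin, by 0.39 (adjusted p = 2.15e-07, 2.59e-05, 3.66e-05 and 0.00988, edgeR). *Hp*, haptoglobin, and *Cyba*, a subunit of the NADPH oxidase, rose by 2.01 and 0.93 (adjusted p = 2.15e-07 and 2.05e-05, edgeR). The summed FPKM of *Ltf*, *Camp*, *Ngp* and *Lcn2* was 219, 397 and 516 times that of the 6 primary granule genes in Ctrl and 1304, 994 and 1307 times in LIP. The lowest LIP ratio lay above the highest Ctrl ratio, and this was not tested.

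**Figure D3:**
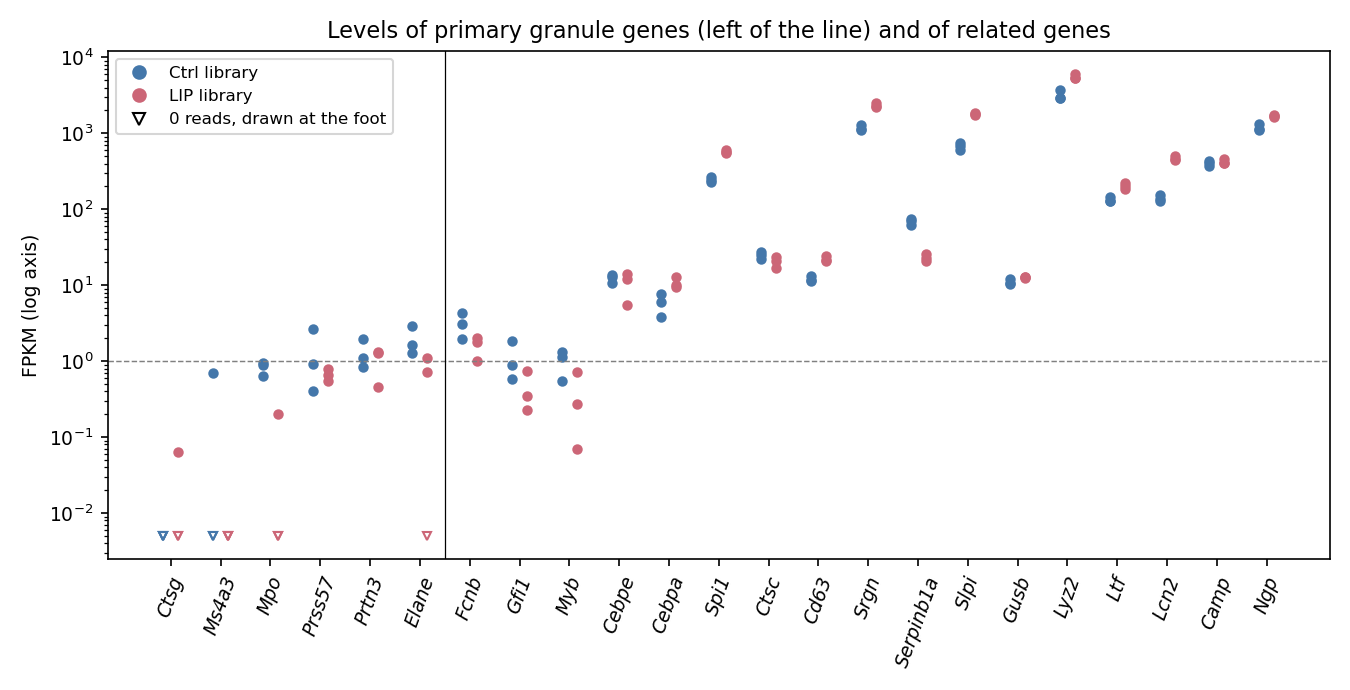
FPKM per library (vertical, log axis) of the 6 primary granule genes, left of the vertical line, and of genes of the promyelocyte program, packaging, inhibition and other granules, right of it. Circles are single libraries (blue Ctrl, red LIP), open triangles are libraries with 0 reads, and the dashed line is 1 FPKM. The primary granule genes stayed under 3 FPKM in every library, whereas *Lyz2* stood between 2892 and 6069.

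**Figure D4:**
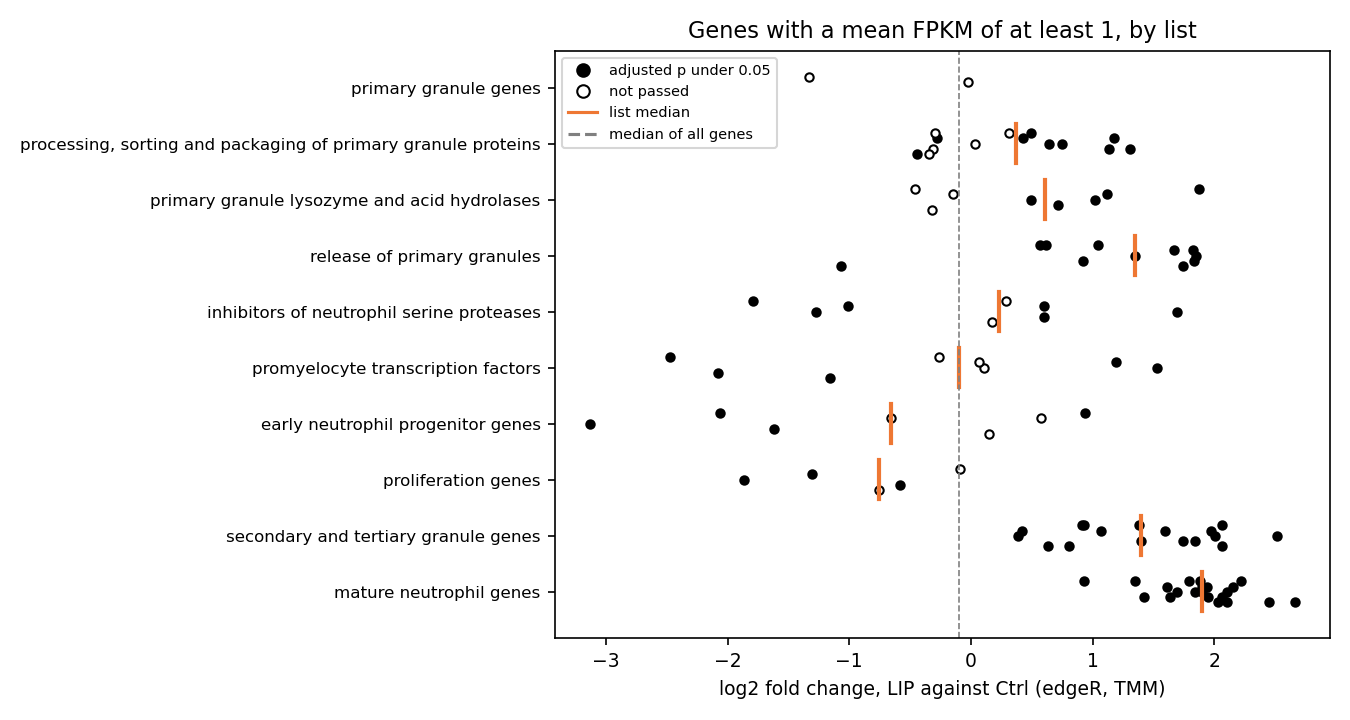
Log2 fold changes of LIP against Ctrl (edgeR, TMM) for genes whose mean FPKM reached 1, 1 circle per gene, by list. Filled circles passed an adjusted p of 0.05, orange bars are list medians (none is drawn for the primary granule genes) and the dashed line is the median of all genes at -0.09. *Elane* (-1.33) and *Prtn3* (-0.02) are open circles. All 17 secondary and tertiary granule genes are filled and right of 0, against 26.5% of all genes called higher. Under scaling on the mature neutrophil genes 9 of these 17 were lower and 1 higher, where 90.3% of all genes were lower.

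The composition of the libraries moved with the group. The 21 mature neutrophil genes were all higher in LIP and summed to between 20115 and 24112 FPKM in Ctrl and between 69679 and 75016 in LIP. The 3 sort markers were higher as well, at 79.2 to 118 and 205 to 223 FPKM. All 12 B cell, 14 T cell and 10 tested erythroid markers were lower, with sums of 11003 to 11985 against 1820 to 1833 FPKM, 585 to 647 against 87.9 to 110 and 180824 to 187054 against 19509 to 20220. Of 12 monocyte markers, 9 were higher and 2 lower, at 243 to 252 and 321 to 353 FPKM, with 0 higher and 10 lower under neutrophil scaling. Of 10 platelet markers, 10 were higher, at 815 to 1062 and 1716 to 2008 FPKM, with 0 higher and 9 lower under neutrophil scaling. Of 8 NK cell markers, 4 were higher and 0 lower, at 243.5 to 292 and 248 to 272 FPKM. They had 0 higher under library totals and 8 lower under neutrophil scaling. Over all genes tested, 26.5% were higher and 27.2% lower, and 90.3% were lower under neutrophil scaling. Under library totals 1919 of these 10440 genes were higher. Basophil, eosinophil and mast cell markers summed to 27.2 to 33.9 and 30.3 to 33.2 FPKM, with 2 higher and 1 lower of 9 tested, and stem and progenitor markers to 68.8 to 77.7 and 41.1 to 44.3. Each of the 29097 genes listed had at least 1 read over the 6 libraries, so a listed marker could not be at 0 in all. Of the markers, 1 of 12 erythroid and 3 of 14 basophil, eosinophil and mast cell genes had no row and were not assessed. Scaled to the mature neutrophil genes, *Elane* and *Prtn3* had log2 fold changes of -3.28 and -1.97 and passed (adjusted p = 0.0154 and 0.00652, edgeR), as did 90.3% of the 10440 genes with LIP lower. In the filterByExpr fit *Mpo* and *Prss57* had -5.18 and -2.65 and passed (adjusted p = 0.0251 and 0.0116, edgeR), while *Elane* did not (adjusted p = 0.0584, edgeR), and 70.9% of these genes were lower. The part of other cells in the values of the primary granule genes was not tested, and in bulk libraries fewer cells with a transcript and less of it per cell cannot be told apart.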

How the data were processed

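PB neutrophil libraries (3 Ctrl, 3 LIP, paired-end reads of 150 bp) were grouped by the sample labels. In the deposited table, the authors gave unnormalized counts for each gene and FPKM values, computed from the counts, gene length and library total. The submitters' processing notes name cutadapt 1.9, FastQC and GRCm38. The aligner, the counter and the use of strand are not given in the sources used here. For 50 gene names on several rows, the row of higher mean FPKM was used.

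Counts were tested with edgeR 4.0.16 in R 4.3.3 (quasi-likelihood test, TMM, Benjamini-Hochberg adjustment over all genes tested, threshold 0.05), on genes whose mean FPKM reached 1. *Mpo* and *Prss57* were read from the filterByExpr fit, a choice made after their values were seen. A standard error is the size of the log2 fold change over the root of F. Single genes were also compared by two-sided exact permutation tests. DESeq2 1.42.0, limma 3.58.1 on log2(FPKM + 1) or log2(FPKM + 0.1), other scalings and filters, a replicate block and left-out libraries were the alternatives, and those run on the filterByExpr fit were added after seeing the data. The scripts were tested on simulated data. Pools of different mice were taken as replicates, and no 2 libraries agreed within sampling noise.

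All 7 genes of the group were to be named, with the 3 most abundant genes of each pathway list, fixed genes of known role, nearest neighbors and the 2 most alike genes in pattern. For cell type markers only list values are given. A result that this rule names is not reported here. The genes and lists were chosen with earlier results of these data known.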

Additional observations from a re-analysis of the deposited data

How the results depend on the processing

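Among genes whose mean FPKM reached 1, 0 of 2 primary granule genes were called. The count was 2 under scaling on the mature neutrophil genes, where 90.3% of all genes were lower. It was 1 in limma on log2(FPKM + 1), where 40.7% were lower. In the filterByExpr fit 0 of 4 were called, and 3 under that scaling, where 70.9% of its genes were lower. Limma called 2 on log2(FPKM + 1) and 1 on log2(FPKM + 0.1), where 31.0% and 30.2% were lower. Leaving out each library gave 0 to 0 and 0 to 1 genes called. The 1 was *Mpo* without LIP 3, where 15.3% of the genes were lower. The log2 fold change of *Prtn3*, -0.02, became 0.0197 with median-of-ratios factors, 0.0176 without a filter, 0.0231 with filterByExpr and 0.0199 in DESeq2, and ran from -0.25 to 0.37 as libraries were left out. That of *Prss57* ran from -1.04 to 0.34, that of *Elane* from -2.07 to -0.75 and that of *Mpo* from -10.27 to -2.67, where the first value, without LIP 3, is set by the prior count and is no bound. Where a group was left with 2 libraries, both groups shared 1 estimate of the spread. A mean FPKM of at least 5 left no primary granule gene to test. Causes of these shifts were not tested.

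Over all genes, 5601 passed (2766 higher, 2835 lower), 3637 with a mean FPKM of at least 5, where fewer genes were tested, and 9465 under neutrophil scaling (35 higher, 9430 lower). Scaled to library totals, 1919 were higher and 4146 lower. In limma the split was 2010 and 4249 on log2(FPKM + 1), and 1974 and 4144 on log2(FPKM + 0.1). Leaving out libraries gave 4674 to 5385.

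The labels give both groups the same replicate numbers, but same-numbered libraries did not deviate together (correlations -0.008, 0.044 and 0.021). With the replicate block 5546 genes passed and no primary granule gene, with adjusted p = 0.125 for *Elane*, 0.959 for *Prtn3*, 0.0779 for *Mpo* and 0.844 for *Prss57* (edgeR). *Ctsg* and *Ms4a3* each had reads in 1 library, and no difference between the groups can be read from them.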
